A study of Mus musculus with 16 samples.

Results

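The genes described here are 8 genes that mark the precursors of oligodendrocytes: *Pdgfra*, *Cspg4*, *Gpr17*, *Lhfpl3*, *Olig1*, *Olig2*, *Sox10* and *Nkx2-2*. They were chosen by name, and all 8 had a row among the 16707 genes of the deposited log2 CPM table (CPM are read counts scaled to the size of each library). The study examined how NLRX1, a mitochondrial receptor of the NOD-like family, shapes the transcriptome of reactive astrocytes. Astrocytes were selected with beads against ACSA-2, an antigen on the astrocyte surface, from brains of WT (C57BL/6J) pups and of *Nlrx1*-/- pups, which lack the gene in all cells. The labels give the pups as postnatal day 6, although the running text of the study names a younger age, and the cells were grown in serum-free medium for about 10 days. A litter is 1 biological replicate, made from several pups, and each of 4 WT and 4 *Nlrx1*-/- litters gave a well with vehicle (H2O) and a well with 500 ng/mL lipopolysaccharide (LPS, a bacterial cell wall component) and 10 ng/mL of the cytokine IFNγ. Both wells were collected after 24 h, which gave 16 libraries in 4 conditions.

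Oligodendrocyte precursors are the dividing cells of the brain that give rise to oligodendrocytes, the cells that wrap axons in myelin. They divide in response to platelet-derived growth factor, which acts through the receptor encoded by *Pdgfra*, and they pass through a stage marked by *Gpr17* before they express myelin genes. The transcription factors *Olig1*, *Olig2*, *Sox10* and *Nkx2-2* set up this lineage, and some of them, *Olig2* above all, are also found in part of the astrocytes and in neural progenitors.

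Salmon assigned between 27259420 and 43752903 read pairs to each library. *Nlrx1* itself lay between 4.08 and 4.44 log2 CPM in the WT libraries and between 1.09 and 2.96 in the *Nlrx1*-/- libraries. All 12 astrocyte markers of a fixed list were measured, with summed levels between 5652.6 and 11719.6 CPM per library, whereas 11 of 12 microglial markers had no row in the table, from which genes with low counts had been removed. The proteins that were stained to judge purity, GFAP, Sox9 and Iba1, include no marker of oligodendrocyte precursors. The summed level of the 8 precursor genes was between 2244.6 and 3884.2 CPM per library. Most of it was *Olig1* and *Olig2*, which in WT vehicle litter 1 held 2113.1 and 748.0 of 3468.1 CPM. The sum is thus no measure of the share of precursor cells. In these bulk libraries, fewer precursor cells and less RNA of these genes per cell cannot be told apart. *Nlrx1*-/- litters 2 and 4 stood apart from the other 6 litters, with the lowest *Gpr17* and *Sox10* in each treatment. The comparisons they move most are also given without them. They were singled out after these levels were seen, so leaving them out raises the mean of *Gpr17* and *Sox10* in *Nlrx1*-/- by construction. Fits without them are no independent test of the genotype differences of these genes.

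Per unit of transcript length, *Olig1* and *Olig2* were the most abundant of the 8 genes in all 4 conditions. In WT vehicle the level of *Olig1* was 1731 ± 243 TPM (read counts scaled to transcript length and library size, SD, n = 4 litters) and that of *Olig2* was 409 ± 112 TPM. The next levels in WT vehicle, *Gpr17* at 75.5 ± 5.2, *Lhfpl3* at 72.1 ± 12 and *Sox10* at 65.8 ± 7.3 TPM, lay within their spread of one another. *Pdgfra* at 40.9 ± 2.2 TPM and *Nkx2-2* at 35.8 ± 8.8 TPM also lay within their spread, and *Cspg4* was lowest at 12.6 ± 1.7 TPM. With LPS + IFNγ, *Nkx2-2* moved from the seventh to the third place in WT, at 82.7 ± 15.2 TPM, and from the sixth to the third in *Nlrx1*-/-, at 88.1 ± 10.4 TPM. *Pdgfra* was at 14.1 ± 2.8 TPM in WT with LPS + IFNγ and at 7.89 ± 2.25 TPM in *Nlrx1*-/-, where it lay beside *Cspg4* at 7.74 ± 1.5 TPM.

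The first question was how the precursor genes responded to LPS + IFNγ within WT litters and within *Nlrx1*-/- litters. In WT, 5 of the 8 genes fell (*Pdgfra*, *Lhfpl3*, *Gpr17*, *Sox10* and *Cspg4*), *Nkx2-2* rose, and *Olig1* and *Olig2* did not pass the test (limma with litter as a block, adjusted p below 0.05 over all 16707 genes). Of all genes, 46.7% were called in WT, 21.9% that fell and 24.9% that rose. In *Nlrx1*-/-, 6 of the 8 genes fell, the same 5 and *Olig1*, and *Nkx2-2* rose, where 52.1% of all genes were called, 25.5% that fell and 26.6% that rose. The median log2 difference of the 8 genes was -0.34 in WT and -0.72 in *Nlrx1*-/-, and that of all genes was -0.02 in both. In WT the levels with and without LPS + IFNγ did not overlap for 5 of the 8 genes, against 37.8% of all genes. In *Nlrx1*-/- they did not overlap for *Pdgfra*, *Lhfpl3* and *Nkx2-2* alone, and the share of all genes was not computed there. Without *Nlrx1*-/- litters 2 and 4, 5 genes fell in *Nlrx1*-/-, among them *Pdgfra* (-1.62), *Gpr17* (-0.91) and *Sox10* (-0.78). The split of all genes into higher and lower depends on the scaling, since 4154 rose and 3656 fell in WT with the deposited values but 2590 rose and 6070 fell when libraries were scaled to equal totals. In *Nlrx1*-/- the numbers were 4448 and 4256 with the deposited values and 2830 and 6570 with equal totals, and that scaling moved the median gene by -0.16 in WT and -0.18 in *Nlrx1*-/-.

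**Figure D1:**
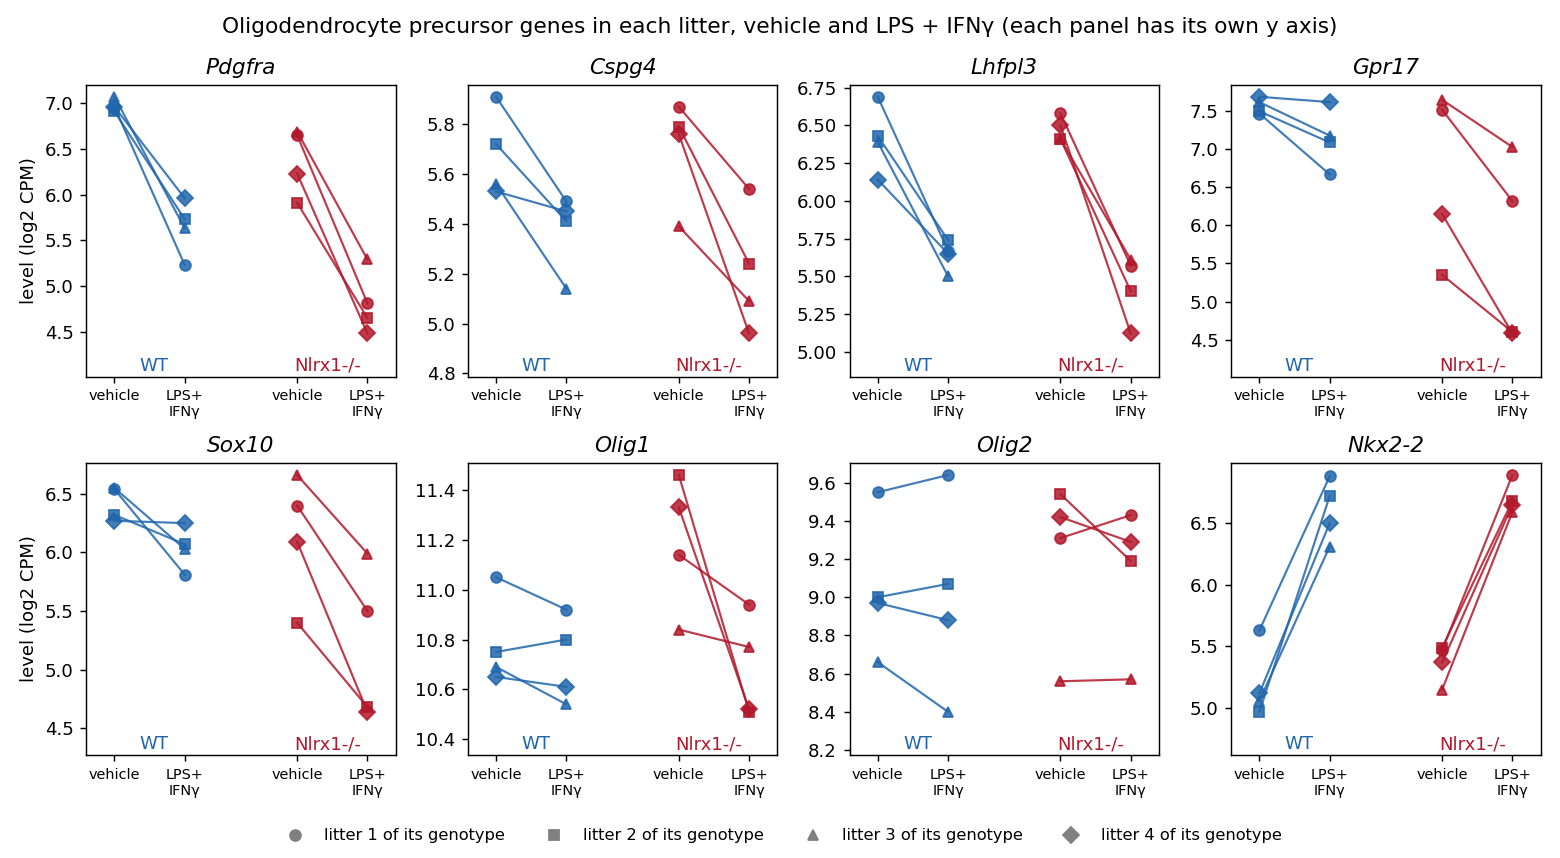
Levels of the 8 precursor genes in log2 CPM (y axis, a separate scale in each panel) for each litter in vehicle and with LPS + IFNγ (x axis), WT in blue and *Nlrx1*-/- in red, with a line joining the libraries of a litter. All 8 lines of *Pdgfra*, *Lhfpl3*, *Gpr17*, *Sox10* and *Cspg4* fall, the least by -0.02 (*Sox10* in WT litter 4), and all 8 of *Nkx2-2* rise. *Gpr17* and *Sox10* lie lowest in *Nlrx1*-/- litters 2 and 4.

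*Pdgfra*, the receptor through which platelet-derived growth factor drives the division of precursors, had the largest fall of the 8 genes in both genotypes. Its levels in WT litters 1 to 4 were 6.96, 6.91, 7.07 and 6.96 log2 CPM in vehicle and 5.23, 5.73, 5.63 and 5.96 with LPS + IFNγ. In *Nlrx1*-/- litters 1 to 4 they were 6.65, 5.91, 6.69 and 6.23 in vehicle and 4.81, 4.65, 5.29 and 4.48 with LPS + IFNγ. Every litter was lower with LPS + IFNγ, and the levels of the treatments did not overlap in either genotype. *Pdgfra* fell by 1.34 on the log2 scale in WT (SE 0.12, limma adjusted p = 2.11e-06), a 2.52-fold fall, and by 1.56 in *Nlrx1*-/- (SE 0.12, adjusted p = 4.68e-07), a 2.95-fold fall. The call held when any single litter was left out, with differences between -1.45 and -1.20 in WT and between -1.66 and -1.47 in *Nlrx1*-/-. The fall was shared by the transcripts of the gene: NM_011058.3 held 45.1% of the *Pdgfra* TPM in WT vehicle and 42.6% in WT with LPS + IFNγ, and NM_001083316.2 held 39.1% and 37.5%.

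The gene lies on chromosome 5 (chr5:75311994-75358876, plus strand, GRCm39, GENCODE M39), and the stretch before the RefSeq start (table of build GRCm38.p6) is shown because *Pdgfra* fell most. The 250 bases before that start were found once in GRCm39, and the 172 bases at chr5:75312662-75312833, plus strand, which hold no annotated UTR, are printed, with the match to the E-box (CANNTG, the same on both strands, the motif of basic helix-loop-helix factors such as OLIG1 and OLIG2) in capitals.
Pdgfra: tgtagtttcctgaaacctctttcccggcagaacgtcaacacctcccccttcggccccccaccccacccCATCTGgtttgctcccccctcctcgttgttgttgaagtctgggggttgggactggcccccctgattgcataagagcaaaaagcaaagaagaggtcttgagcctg
The single E-box starts 182 bases before the RefSeq start. The printed stretch lies within the GENCODE bounds of *Pdgfra* given above, so it is not upstream of the whole annotated gene.

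*Lhfpl3*, a membrane protein of the lipoma HMGIC fusion partner family that is enriched in precursors, had the next largest fall in WT. WT litters 1 to 4 had levels of 6.69, 6.43, 6.39 and 6.14 log2 CPM in vehicle and 5.67, 5.74, 5.50 and 5.65 with LPS + IFNγ. In litters 1 to 4 of *Nlrx1*-/- they were 6.58, 6.41, 6.41 and 6.50 in vehicle and 5.57, 5.40, 5.61 and 5.12 with LPS + IFNγ. The treatments did not overlap in either genotype, and *Nlrx1*-/- litters 2 and 4 did not stand apart from the others in vehicle. *Lhfpl3* fell by 0.77 on the log2 scale in WT (SE 0.10, limma adjusted p = 4.36e-05) and by 1.05 in *Nlrx1*-/- (SE 0.10, adjusted p = 2.81e-06). Nearly all of its TPM, between 99.4% and 100.0% on average in each condition, came from the transcript NM_029990.2.

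*Lhfpl3* lies on chromosome 5 (chr5:22951057-23480611, plus strand, GRCm39), and the 250 bases before its RefSeq start, found once in GRCm39 at chr5:22950802-22951051, plus strand, are shown beside those of *Pdgfra* because these genes had the largest falls in WT. They hold no annotated UTR of a coding gene but lie in an exon of the noncoding *A930003O13Rik* on the other strand, and E-boxes are in capitals.
Lhfpl3: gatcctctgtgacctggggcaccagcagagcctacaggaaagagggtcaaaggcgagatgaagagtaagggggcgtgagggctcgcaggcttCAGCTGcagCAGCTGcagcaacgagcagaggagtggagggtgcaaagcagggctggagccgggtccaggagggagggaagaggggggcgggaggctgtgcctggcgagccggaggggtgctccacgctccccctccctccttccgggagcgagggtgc
Its 2 E-boxes start 158 and 149 bases before the RefSeq start and have the same letters.

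*Gpr17*, a G protein-coupled receptor that marks precursors on the way to becoming oligodendrocytes, differed more between litters than any of the other 7 genes in *Nlrx1*-/-. Its levels in WT litters 1 to 4 were 7.47, 7.50, 7.62 and 7.69 log2 CPM in vehicle and 6.67, 7.09, 7.18 and 7.62 with LPS + IFNγ. The *Nlrx1*-/- litters 1 to 4 had 7.52, 5.35, 7.65 and 6.15 in vehicle and 6.32, 4.60, 7.03 and 4.58 with LPS + IFNγ. *Nlrx1*-/- litters 1 and 3 lay near the WT litters in vehicle, and litters 2 and 4 lay below all of them. *Gpr17* was lower with LPS + IFNγ in all 8 litters, by between 0.07 and 0.80 on the log2 scale in WT and between 0.63 and 1.57 in *Nlrx1*-/-. It fell by 0.43 in WT (SE 0.14, limma adjusted p = 0.0234) and by 1.04 in *Nlrx1*-/- (SE 0.14, adjusted p = 6.38e-05). The WT call was lost without WT litter 1 (-0.31, adjusted p = 0.131), litter 2 (-0.44, adjusted p = 0.0666) or litter 3 (-0.43, adjusted p = 0.0742), and both calls were lost in a fit without the litter block, where adjusted p was 0.554 in WT and 0.124 in *Nlrx1*-/-. *Lims2*, on the other strand, shares 320 of the 5394 exon bases of *Gpr17* and was listed at 1.08 to 3.67 log2 CPM.

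*Cspg4*, the proteoglycan NG2 on the surface of precursors and of pericytes, changed least among the 4 genes of surface proteins (chr9:56772317-56807187, plus strand, GRCm39). WT litters 1 to 4 had levels of 5.91, 5.72, 5.56 and 5.53 log2 CPM in vehicle and 5.49, 5.41, 5.14 and 5.45 with LPS + IFNγ. In litters 1 to 4 of *Nlrx1*-/- they were 5.87, 5.79, 5.39 and 5.76 in vehicle and 5.54, 5.24, 5.09 and 4.96 with LPS + IFNγ. The levels did not overlap in WT but did in *Nlrx1*-/-, where litter 3 in vehicle lay below litter 1 with LPS + IFNγ. *Cspg4* fell by 0.31 on the log2 scale in WT (SE 0.09, limma adjusted p = 0.0125), a 1.24-fold fall, and by 0.50 in *Nlrx1*-/- (SE 0.09, adjusted p = 0.000508). The WT call was lost without WT litter 1 (-0.27, adjusted p = 0.0616) or WT litter 3 (-0.27, adjusted p = 0.0657), and without the litter block (adjusted p = 0.0828). Pericytes also express *Cspg4*, and of 9 measured genes of a list for pericytes, smooth muscle and fibroblasts, 3 fell and 0 rose in WT while 2 fell and 2 rose in *Nlrx1*-/-. Of all genes, 21.9% fell and 24.9% rose in WT and 25.5% and 26.6% in *Nlrx1*-/-. The 3 in WT were *Acta2*, *Tagln* and *Col1a2*. *Pdgfrb* and *Rgs5*, named after their values were seen, were not called in WT and rose in *Nlrx1*-/- (0.41 and 1.37). *Acta2* and *Tagln* were the highest of the list in WT vehicle, at means of 7.8 and 7.74 log2 CPM, against 3.26 for *Pdgfrb*. The summed level of that list was between 341.2 and 558.1 CPM in WT vehicle, between 187.4 and 406.2 in WT with LPS + IFNγ, between 248.1 and 567.0 in *Nlrx1*-/- vehicle and between 229.0 and 378.5 in *Nlrx1*-/- with LPS + IFNγ, and its part in the *Cspg4* result was not tested.

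*Nkx2-2*, a homeodomain factor that acts in the step from precursor to oligodendrocyte, was the 1 gene of the 8 that rose. Its levels in WT litters 1 to 4 were 5.63, 4.97, 5.06 and 5.12 log2 CPM in vehicle and 6.88, 6.72, 6.31 and 6.50 with LPS + IFNγ. In *Nlrx1*-/- litters 1 to 4 they were 5.47, 5.49, 5.15 and 5.37 in vehicle and 6.89, 6.68, 6.59 and 6.65 with LPS + IFNγ. Every library with LPS + IFNγ lay above every vehicle library of both genotypes. *Nkx2-2* was higher by 1.4 on the log2 scale in WT (SE 0.08, limma adjusted p = 5.43e-08), a 2.64-fold rise, and by 1.33 in *Nlrx1*-/- (SE 0.08, adjusted p = 8.15e-08), a 2.51-fold rise. Over 21 alternatives the difference stayed between 1.24 and 1.46 in WT and between 1.15 and 1.43 in *Nlrx1*-/-, with every one called. The transcript NM_010919.2 held between 89.2% and 90.9% of its TPM on average in each condition. The antisense gene *Nkx2-2os* shares 350 of the 2875 exon bases of *Nkx2-2*, and reads there could not be assigned to a strand, but *Nkx2-2os* was listed at only 0.36 to 1.83 log2 CPM over the 16 libraries.

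*Nkx2-2* lies on chromosome 2 (chr2:147019466-147036163, minus strand, GRCm39), and the stretch before its RefSeq start is shown because *Nkx2-2* moved against the other genes. The 248 bases without annotated UTR, at chr2:147028325-147028572, minus strand, are printed with E-boxes in capitals, and the bases nearest the start lie in exons of noncoding transcripts of the same gene.
Nkx2-2: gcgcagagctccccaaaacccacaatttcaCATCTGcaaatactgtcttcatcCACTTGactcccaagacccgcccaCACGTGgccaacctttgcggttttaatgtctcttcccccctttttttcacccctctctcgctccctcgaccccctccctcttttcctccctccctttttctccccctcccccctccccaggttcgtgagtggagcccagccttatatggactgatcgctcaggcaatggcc
Its 3 E-boxes start 220, 197 and 173 bases before the RefSeq start, and the first has the same 6 letters as the E-box of *Pdgfra*. This stretch, too, lies within the bounds of its gene given above.

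The RefSeq table held the 250 bases before the start for 5 of the 8 genes, *Nkx2-2*, *Lhfpl3*, *Pdgfra*, *Cspg4* and *Olig2*, and E-boxes were found before 3 of them (*Nkx2-2*, *Lhfpl3* and *Pdgfra*), against 66.2% of all 32851 stretches of that length. The letters of the interferon-γ motif GAS (TTCNNNGAA, the same on both strands) were in 0 of the 5, against 7.02% of all stretches. A SOX pattern (ACAAAG) was in 0 of the 5, against 16.5%. The patterns were searched on both strands, none overlaps another here, and a match or its absence describes only the letters of these windows.

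*Sox10*, a transcription factor that is kept from the precursor to the myelinating oligodendrocyte, had levels that followed those of *Gpr17* (chr15:79039108-79049469, minus strand, GRCm39). WT litters 1 to 4 had levels of 6.54, 6.32, 6.55 and 6.27 log2 CPM in vehicle and 5.81, 6.07, 6.03 and 6.25 with LPS + IFNγ. The *Nlrx1*-/- litters 1 to 4 had 6.40, 5.40, 6.66 and 6.09 in vehicle and 5.50, 4.68, 5.99 and 4.64 with LPS + IFNγ. The WT levels did not overlap between treatments by a narrow margin, and in *Nlrx1*-/- litter 2 in vehicle lay below litters 1 and 3 with LPS + IFNγ. *Sox10* fell by 0.38 on the log2 scale in WT (SE 0.13, limma adjusted p = 0.0293) and by 0.93 in *Nlrx1*-/- (SE 0.13, adjusted p = 7.9e-05). The WT call is weak: it was lost in edgeR on gene sums (-0.33, adjusted p = 0.0729), without the litter block (adjusted p = 0.300), and without WT litter 1 (-0.26, adjusted p = 0.159), litter 2 (-0.42, adjusted p = 0.0556) or litter 3 (-0.33, adjusted p = 0.118). The *Nlrx1*-/- call held in all 21 alternatives, between -1.11 and -0.76.

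*Olig1*, a basic helix-loop-helix factor of the lineage that lies next to *Olig2* (chr16:91066660-91068821, plus strand, GRCm39), was the gene of the 8 that fell in *Nlrx1*-/- without passing the test in WT. Its levels in WT litters 1 to 4 were 11.05, 10.75, 10.69 and 10.65 log2 CPM in vehicle and 10.92, 10.80, 10.54 and 10.61 with LPS + IFNγ. In litters 1 to 4 of *Nlrx1*-/- they were 11.14, 11.46, 10.84 and 11.33 in vehicle and 10.94, 10.51, 10.77 and 10.52 with LPS + IFNγ. Litters 2 and 4 of *Nlrx1*-/- had the highest *Olig1* of all 16 libraries in vehicle and the lowest with LPS + IFNγ, and litters 1 and 3 differed little between treatments. The differences were -0.95 and -0.81 in litters 2 and 4, and -0.21 and -0.08 in litters 1 and 3. *Olig1* fell by 0.51 on the log2 scale in *Nlrx1*-/- (SE 0.12, limma adjusted p = 0.0035), and the WT difference was -0.06 (95% interval -0.32 to 0.20, adjusted p = 0.686). Without litters 2 and 4 the *Nlrx1*-/- difference was -0.14 and lost its call (adjusted p = 0.0942).

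*Olig2* (chr16:91019435-91025567, plus strand), the factor that specifies the lineage, varied more between litters than between treatments. WT litters 1 to 4 had levels of 9.55, 9.0, 8.66 and 8.97 log2 CPM in vehicle and 9.64, 9.07, 8.40 and 8.88 with LPS + IFNγ. The *Nlrx1*-/- litters 1 to 4 had 9.31, 9.54, 8.56 and 9.42 in vehicle and 9.43, 9.19, 8.57 and 9.29 with LPS + IFNγ. Litter 3 was lowest in each genotype and treatment, and the treatments overlapped. The difference was -0.04 in WT (95% interval -0.21 to 0.12, limma adjusted p = 0.678) and -0.09 in *Nlrx1*-/- (95% interval -0.25 to 0.08, adjusted p = 0.348). Only when libraries were scaled to equal totals was it called, at -0.21 in WT (adjusted p = 0.0420) and -0.27 in *Nlrx1*-/- (adjusted p = 0.0131).

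The second question was whether the response differed between the genotypes. None of the 8 genes passed the test of the interaction (limma, 0% of all genes called). An unadjusted limma p below 0.05 was found for 3 of them, *Gpr17*, *Sox10* and *Olig1*, and for 2786 of all 16707 genes. Neither edgeR nor DESeq2 called any of the 8. The difference of the responses was -0.61 for *Gpr17* (95% interval -1.03 to -0.18, adjusted p = 0.184), -0.55 for *Sox10* (-0.95 to -0.16, adjusted p = 0.185) and -0.45 for *Olig1* (-0.81 to -0.08, adjusted p = 0.225). For these 3 genes the estimate was a larger fall in *Nlrx1*-/-. For *Pdgfra* it was -0.23 (-0.58 to 0.13), for *Lhfpl3* -0.28 (-0.58 to 0.02), for *Cspg4* -0.19 (-0.46 to 0.08), for *Olig2* -0.05 (-0.28 to 0.19) and for *Nkx2-2* -0.07 (-0.32 to 0.17). The intervals of *Olig2* and *Nkx2-2* were the narrowest of the 8, and they still allow differences down to -0.28 and -0.32. The interaction depends on which *Nlrx1*-/- litters enter. Without litter 3, *Olig1* (-0.59, adjusted p = 0.0409) and *Gpr17* (-0.74, adjusted p = 0.0430) were called, in a fit that called 378 genes higher and 444 lower of all 16707. Without litters 2 and 4 the values were -0.08 for *Olig1* (adjusted p = 0.789), -0.48 for *Gpr17* (adjusted p = 0.454) and -0.40 for *Sox10* (adjusted p = 0.499), and 0 of all genes were called.

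**Figure D2:**
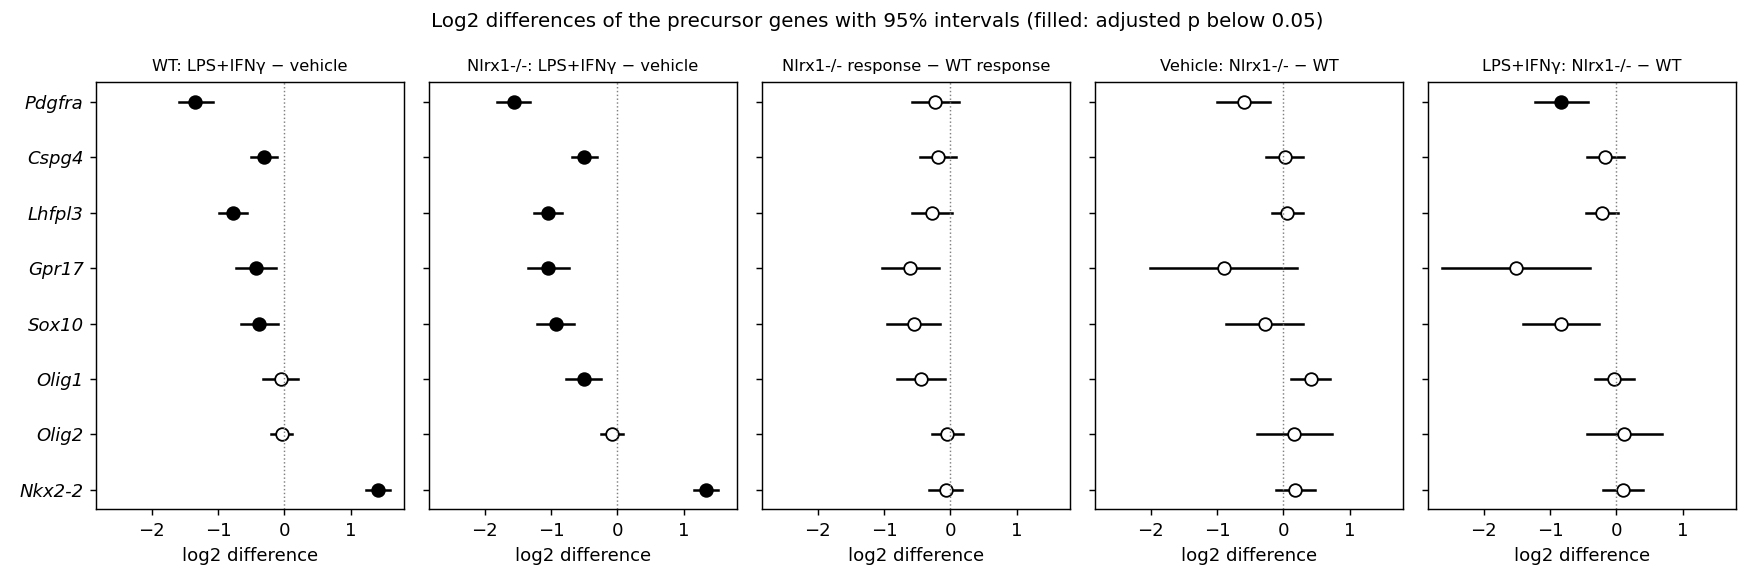
Log2 difference (x axis) of each precursor gene (y axis) in the 5 comparisons, as the limma estimate (circle, filled where adjusted p is below 0.05) with its 95% interval (line). Filled circles stand at 6 genes for the WT response, 7 for the *Nlrx1*-/- response, 0 for the difference of the responses, 0 in vehicle and 1, *Pdgfra*, with LPS + IFNγ.

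The third question was whether the genotypes differed within a treatment. In vehicle, none of the 8 genes passed the test (limma, 0.00599% of all genes called). An unadjusted limma p below 0.05 was found for 2 of the 8 and for 3532 of all 16707 genes. Of the 8, edgeR called 0 and DESeq2 called 1. *Pdgfra* was the 1 gene of the 8 whose genotypes did not overlap in vehicle (9.45% of all genes did not), with 5.91 to 6.69 log2 CPM in *Nlrx1*-/- and 6.91 to 7.07 in WT, and its difference was -0.60 (95% interval -1.0 to -0.21, adjusted p = 0.115). *Olig1* differed by 0.41 (0.11 to 0.70, adjusted p = 0.131) in the other direction, and this was the gene called by DESeq2 (0.44, adjusted p = 0.0406). *Gpr17* differed by -0.90 in vehicle, with an interval from -2.01 to 0.21 that its 4 *Nlrx1*-/- litters make wide. The difference was 0.01 without litters 2 and 4, a change that follows from leaving out the litters lowest in *Gpr17*. The remaining differences in vehicle were -0.28 for *Sox10* (-0.86 to 0.30), 0.17 for *Nkx2-2* (-0.12 to 0.47), 0.16 for *Olig2* (-0.40 to 0.73), 0.06 for *Lhfpl3* (-0.18 to 0.30) and 0.02 for *Cspg4* (-0.26 to 0.30). Without *Nlrx1*-/- litter 3, *Pdgfra* (-0.71, adjusted p = 0.0197) and *Olig1* (0.53, adjusted p = 0.0260) were called in vehicle, in a fit that called 688 genes higher and 930 lower of all 16707. Without litters 2 and 4 the values were -0.30 for *Pdgfra* (adjusted p = 0.661) and 0.21 for *Olig1* (adjusted p = 0.699), and 0 genes higher and 2 lower were called of all.

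With LPS + IFNγ, 1 of the 8 genes differed between the genotypes, *Pdgfra*, which was lower in *Nlrx1*-/- (4.41% of all genes were called lower and 4.40% higher). The *Pdgfra* level was 4.81 ± 0.35 log2 CPM in *Nlrx1*-/- and 5.64 ± 0.31 in WT (SD, n = 4 litters), a difference of -0.83 (SE 0.19, 95% interval -1.23 to -0.43, limma adjusted p = 0.0349). Levels of the genotypes overlapped for all 8 genes with LPS + IFNγ, while 13.3% of all genes did not overlap, since *Pdgfra* in *Nlrx1*-/- litter 3, at 5.29, lay above WT litter 1, at 5.23. The call of *Pdgfra* did not hold without WT litter 2 (-0.80, adjusted p = 0.112), WT litter 3 (-0.83, adjusted p = 0.122) or WT litter 4 (-0.72, adjusted p = 0.132). It was also lost without *Nlrx1*-/- litter 2 (-0.78, adjusted p = 0.0562), *Nlrx1*-/- litter 4 (-0.72, adjusted p = 0.129) or both together (-0.59, adjusted p = 0.246). Each of these fits called at most 1 gene higher and 2 lower of all 16707, against 735 and 736 with all litters, so the loss is not particular to *Pdgfra*. *Sox10* differed by -0.83 (-1.41 to -0.26, adjusted p = 0.0623) and *Gpr17* by -1.51 (-2.62 to -0.40, adjusted p = 0.0730). Both were called without *Nlrx1*-/- litter 3, at -1.10 and -1.97, in a fit that called 1888 genes higher and 1980 lower of all 16707. The main fit leaves out that the libraries of a litter are alike. With litter as a random effect *Sox10* (adjusted p = 0.0415) and *Gpr17* (adjusted p = 0.0421) were called, as were 971 genes higher and 1063 lower of all. With the LPS + IFNγ libraries alone *Pdgfra* lost its call (adjusted p = 0.0699), and 0 genes higher and 1 lower were called of all. Without litters 2 and 4, the litters lowest in these genes, the differences of *Sox10* and *Gpr17* were -0.29 and -0.47, a change that follows from that choice. The other 4 differences with LPS + IFNγ were -0.22 for *Lhfpl3* (-0.46 to 0.02), -0.17 for *Cspg4* (-0.45 to 0.11), 0.12 for *Olig2* (-0.44 to 0.68) and 0.10 for *Nkx2-2* (-0.20 to 0.40), and that of *Olig1* was -0.04 (-0.33 to 0.26).

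The myelin genes, which oligodendrocytes express after the precursor stage, stood lowest in the same litters. Their summed level over 17 measured genes in *Nlrx1*-/- litters 1 to 4 was 916.7, 477.6, 1294.3 and 632.6 CPM in vehicle and 519.0, 354.5, 753.5 and 358.6 CPM with LPS + IFNγ, while WT litters lay between 976.1 and 1476.8 CPM in vehicle and between 630.1 and 1137.5 CPM with LPS + IFNγ. The summed level of the 12 astrocyte markers was 7780.5, 5946.9, 9272.0 and 6579.8 CPM in *Nlrx1*-/- litters 1 to 4 in vehicle, against 7468.9 to 11719.6 CPM in WT. Not all astrocyte markers were low in litters 2 and 4: in vehicle *Aldh1l1* was at 9.67 and 9.76 log2 CPM there and at 9.4 to 9.65 in WT, and *Slc1a3* was at 11.24 and 11.05 there and at 11.06 to 11.21 in WT. Litters 2 and 4 were thus low in *Gpr17*, *Sox10*, *Pdgfra* and the summed myelin and astrocyte levels, and high in *Olig1*, in vehicle. The part of the cell makeup of these litters in the genotype differences was not tested.

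The 8 genes fell into sets by how they varied between litters. After the mean of each condition was subtracted, *Sox10* and *Gpr17* had a Pearson r of 0.96 over the 16 libraries, *Pdgfra* and *Gpr17* of 0.90, and *Pdgfra* and *Sox10* of 0.89. *Olig2* and *Nkx2-2* had an r of 0.86, *Olig1* and *Nkx2-2* of 0.78, *Cspg4* and *Olig1* of 0.77, and *Olig1* and *Olig2* of 0.71. Between *Pdgfra*, *Sox10* or *Gpr17* on one side and *Cspg4*, *Olig1*, *Olig2* or *Nkx2-2* on the other, all values were negative, between -0.66 (*Pdgfra* and *Olig2*) and -0.04 (*Sox10* and *Cspg4*). These are descriptions over 8 litters, since the libraries of a litter share their cells, and each is 1 of 28 pairs, of which 16 were positive. Without *Nlrx1*-/- litters 2 and 4, over 12 libraries of 6 litters, *Sox10* and *Gpr17* had an r of 0.79, *Pdgfra* and *Gpr17* of 0.95, and *Olig1* and *Olig2* of 0.92, while *Olig1* and *Gpr17* went from -0.17 to -0.66. *Lhfpl3* had positive values with all 7 others over 16 libraries, but without these litters it went from 0.41 to -0.22 with *Gpr17* and from 0.37 to 0.01 with *Pdgfra*.

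**Figure D3:**
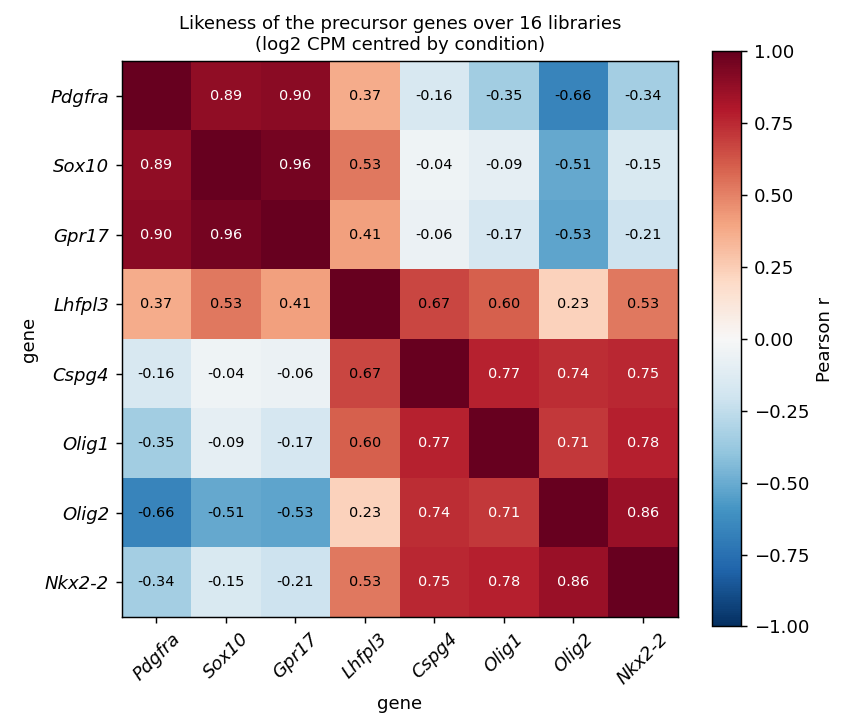
Pearson r (colour and number) between the 8 precursor genes (both axes) over 16 libraries, with log2 CPM centred by condition. *Pdgfra*, *Sox10* and *Gpr17* form a block between 0.89 and 0.96, *Cspg4*, *Olig1*, *Olig2* and *Nkx2-2* another between 0.71 and 0.86, and *Lhfpl3* lies between 0.23 and 0.67 with the 7 others.

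The genes most like the average of the 8 over the 16 libraries, centred by condition and ranked among 12592 genes, were *Lrrc4c* (r = 0.93, rho = 0.93), *Kif18a* (r = 0.92, rho = 0.93), *Scml2* (r = 0.92, rho = 0.94), *Clstn3* (r = 0.91, rho = 0.91) and *Pcdhb21* (r = 0.91, rho = 0.96). The level of *Lrrc4c*, a synaptic adhesion protein, was between 5.57 and 5.85 log2 CPM in WT vehicle and between 4.74 and 5.12 in *Nlrx1*-/- with LPS + IFNγ. These values are likenesses over 8 litters and carry no test. The average joins sets of genes with negative r between them, so likeness to it need not be likeness to either set.

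Other genes of precursors and newly formed oligodendrocytes mostly fell with LPS + IFNγ as well. Of 31 measured genes of that list, 25 fell and 3 rose in WT, with a median log2 difference of -0.64, and 25 fell and 4 rose in *Nlrx1*-/-, with a median of -0.88, against -0.02 over all genes, of which 21.9% fell in WT and 25.5% in *Nlrx1*-/-. The called genes with the largest differences in WT were *Susd5* (-2.44), *Matn4* (-2.32), *Zfp536* (1.95) and *Sema5a* (-1.79), and in *Nlrx1*-/- they were *Sema5a* (-1.97), *Zfp536* (1.88), *Susd5* (-1.88) and *Bmp4* (-1.61). Of these, *Susd5* and *Matn4* were weakly expressed, with means of -0.88 and 0.06 log2 CPM over the 16 libraries. *Sema5a*, a guidance protein, lay between 5.6 and 6.08 log2 CPM in vehicle and between 3.79 and 4.33 with LPS + IFNγ over both genotypes, with no overlap. *Zfp536*, a zinc finger repressor, rose like *Nkx2-2*, from 1.02 to 2.55 log2 CPM in vehicle to 3.16 to 4.68 with LPS + IFNγ. Between the genotypes, 0 of the 31 were called in vehicle and in the interaction. With LPS + IFNγ 1, *Sox6*, was lower in *Nlrx1*-/- (-0.42, limma adjusted p = 0.0406), where 4.41% of all genes were. This call was lost without *Nlrx1*-/- litters 2 and 4, but that fit called only 1 gene higher and 2 lower of all 16707. Without those litters 25 of the 31 still fell in *Nlrx1*-/-.

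Of 32 ligands, receptors and regulators that act on precursors, 8 rose and 12 fell in WT and 10 rose and 13 fell in *Nlrx1*-/-. Of all genes, 24.9% rose and 21.9% fell in WT and 26.6% rose and 25.5% fell in *Nlrx1*-/-. The called genes with the largest differences were *Lif* (2.72), *Bmp7* (2.26), *Pdgfc* (1.83) and *Id4* (-1.27) in WT, and *Lif* (3.14), *Igf1* (-2.15), *Hes5* (-2.06) and *Shh* (1.92) in *Nlrx1*-/-. Of these, *Igf1* was weakly expressed, with a mean of -1.1 log2 CPM over the 16 libraries. *Pdgfc*, a ligand of the receptor encoded by *Pdgfra*, thus rose in WT while the receptor fell. *Pdgfa*, the ligand best known for driving precursor division and named here after its values were seen, was higher by 0.36 in WT (limma adjusted p = 0.0189) and by 0.38 in *Nlrx1*-/- (adjusted p = 0.0129). With LPS + IFNγ, 6 of the 32 were lower in *Nlrx1*-/- than in WT, among them *Id4* (-1.48), *Hes5* (-1.48), *Lingo1* (-1.17) and *Id2* (-1.06), and 1 was higher (4.41% and 4.40% of all genes). Without *Nlrx1*-/- litters 2 and 4, 0 of the 32 were called, in a fit that called only 1 gene higher and 2 lower of all 16707. ID2, ID4 and HES5 are inhibitors of oligodendrocyte differentiation.

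Of the 17 measured myelin genes, 8 fell and 2 rose in WT, with a median of -0.53, and 11 fell and 0 rose in *Nlrx1*-/-, with a median of -1.29, against 21.9% of all genes that fell and 24.9% that rose in WT and 25.5% and 26.6% in *Nlrx1*-/-. Among those with the largest differences were *Mal* (-1.88), *Mbp* (-1.23) and *Mag* (-0.88) in WT, and *Mal* (-2.38), *Gjb1* (-2.17) and *Mbp* (-2.09) in *Nlrx1*-/-. Of these, *Mal* and *Gjb1* were weakly expressed, with means of -0.32 and -2.06 log2 CPM over the 16 libraries. Of the 12 astrocyte markers, 6 fell and 3 rose in WT and 7 fell and 2 rose in *Nlrx1*-/-, led by *Gjb6* (-1.75), *Gja1* (-0.97), *S100b* (-0.95) and *Aqp4* (-0.84) in WT. *Gjb6* was weakly expressed, with a mean of -1.45 log2 CPM over the 16 libraries. The astrocyte markers that rose, named after their values were seen, were *Aldh1l1* (0.59), *Aldoc* (0.30) and *Slc1a3* (0.24) in WT, and *Aldh1l1* (0.36) and *Slc1a3* (0.15) in *Nlrx1*-/-. The fall of *Pdgfra*, *Lhfpl3*, *Gpr17* and *Sox10* with LPS + IFNγ thus stood beside lower levels of part of the myelin genes and of part of the astrocyte markers, and the part of those cells in it was not tested. With LPS + IFNγ, 2 myelin genes (*Tspan2*, -1.09, and *Cnp*, -0.70) and 5 astrocyte markers were lower in *Nlrx1*-/- than in WT (4.41% of all genes were). Without *Nlrx1*-/- litters 2 and 4 these counts were 0 and 0, in a fit that called only 1 gene higher and 2 lower of all 16707.

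**Figure D4:**
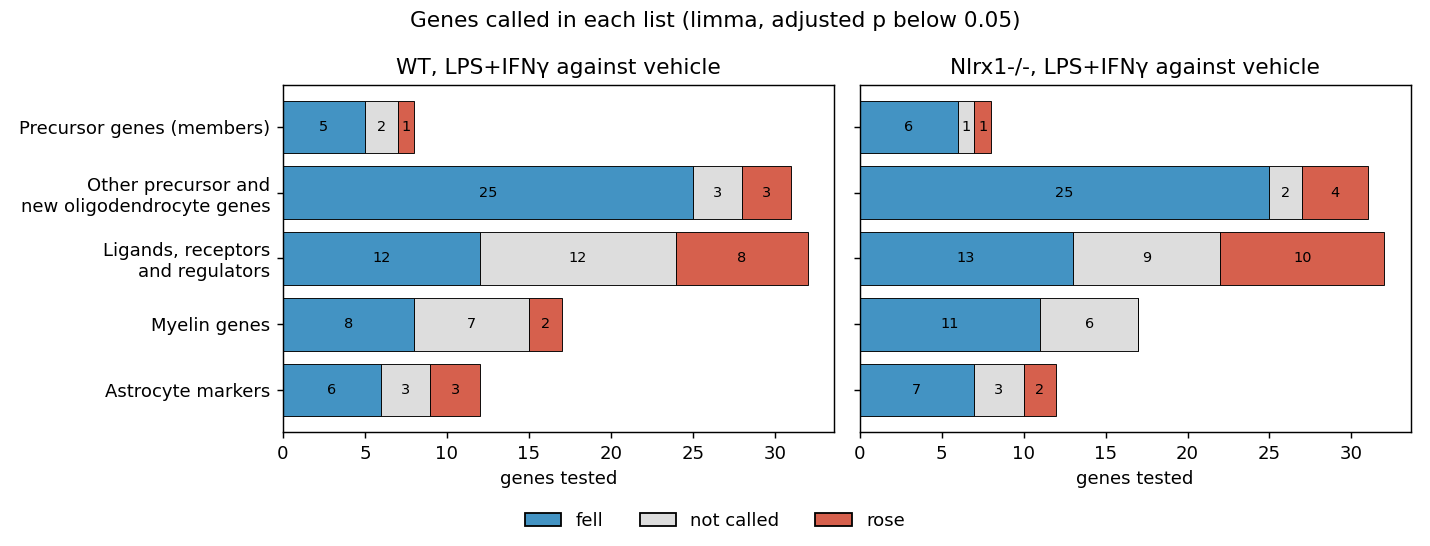
Number of genes tested (x axis) that fell (blue), did not pass the test (grey) or rose (red) with LPS + IFNγ in WT (left) and *Nlrx1*-/- (right), for the 8 precursor genes and 4 lists of other genes (y axis). In the list of other precursor genes 25 of 31 fell in each genotype, and among myelin genes 8 of 17 fell in WT and 11 in *Nlrx1*-/-.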

How the data were processed

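RNA from 16 libraries (4 WT and 4 *Nlrx1*-/- litters, each with vehicle and LPS + IFNγ) was sequenced after poly-A capture, with no record of the strand. The authors quantified RefSeq transcripts of GRCm39 with Salmon 1.7.0 and deposited, for each transcript, the expected count (estimated, not normalised) and the TPM. The authors summed these per gene with length scaling, filtered out weakly expressed genes and applied TMM factors, so the deposited CPM values are a signal with no fixed sum per library. The log2 values deposited by the authors are the log2 of these CPM from limma-voom 3.58.1. The deposited columns of effective length were not tested.

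Levels and tests used the deposited log2 CPM, because part of the transcripts in the count files could not be paired with a symbol (between 96.7% and 97.3% of reads were paired). Gene sums of the paired transcripts differed from the deposited CPM by up to 0.30 log2 units for *Olig2* and *Nkx2-2* and by at most 0.08 for the other 6 genes. Responses and their interaction were fitted in limma 3.58.1 (R 4.3.3, lmFit and eBayes with trend) with genotype, litter within genotype and genotype by treatment. Genotypes were compared within a treatment with a separate fit of the 4 conditions that has no term for litter, since a litter is of a single genotype. P-values were adjusted over all 16707 genes by Benjamini-Hochberg, with a threshold of 0.05. Litter numbers pair the libraries because both wells came from the same mice: libraries of a litter had a correlation of deviations between 0.07 and 0.35 across genes, against medians between -0.15 and -0.02 for other litters. Alternatives used edgeR 4.0.16 and DESeq2 1.42.0 on gene sums rounded to whole numbers, other scalings, filters and pseudocounts, other treatments of litter, and leaving out litters. The fits were tested on simulated data, with 200 genes changed by 1 log2 unit and the same litter spread drawn for all genes. They recovered 53% of these genes in the interaction and between 72% and 75% in the other comparisons. Between 4.64% and 7.02% of the calls were of unchanged genes. The litter spread drawn was smaller than that of *Gpr17*, whose SD between *Nlrx1*-/- litters in vehicle was 1.11 log2 CPM. In the real responses 46.7% of all genes were called in WT and 52.1% in *Nlrx1*-/-, far more than the 200 changed here. These shares thus do not describe the genotype tests of genes that vary this much between litters. Depth was between 27259420 and 43752903 read pairs per library, and each of the 8 genes had at least 676 reads in every library, and the errors given are those between litters.

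The 8 genes and the lists were chosen with earlier results of these data known. All 8 genes are reported in every comparison, and of each list up to 4 called genes with the largest log2 difference are named, except for 1 gene of the myelin list whose values are not reported here. The likeness ranking took genes with a mean of at least 1 log2 CPM. *Gpr17*, *Lhfpl3*, *Nkx2-2*, *Olig1*, *Olig2* and *Pdgfra* share part of their exons with genes on the other strand, between 1.4% and 17.6% of exon bases, which the libraries cannot separate. The stretches before RefSeq starts were read with Python 3.11.15 and plots drawn with matplotlib 3.10.9.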

Additional observations from a re-analysis of the deposited data

How the results depend on the processing

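The 8 genes were tested in 5 comparisons under 23 alternatives, of which 2 (scaling to equal totals, and leaving out *Nlrx1*-/- litters 2 and 4 together) were chosen after seeing the data. Of 856 values, 790 kept their direction and their side of the threshold, 29 lost a call, 14 gained one and 23 changed sign, of which 0 were called in either fit. The number that fell in WT, 5, was 2 at an adjusted p below 0.01, 2 without the replicate block, 3 with litter as a random effect, and between 2 and 5 when 1 litter was left out. The number that fell in *Nlrx1*-/- was 6 in every fit without 1 litter. In vehicle, where 0 genes were called, DESeq2 called 1 higher, and between 0 and 1 were called in each direction when 1 litter was left out. With LPS + IFNγ the 1 gene lower in *Nlrx1*-/- became 2 with DESeq2, 0 at an adjusted p below 0.01, 3 with litter as a random effect, 3 with the replicate block, 0 with the libraries of that treatment alone, 0 without *Nlrx1*-/- litters 2 and 4 together, and between 0 and 3 when 1 litter was left out. In the interaction between 0 and 2 were called lower when 1 litter was left out. The cause of these changes was not tested.

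The block of the genotype comparisons joins litters of the same number from both genotypes, which share only a number (correlation between -0.09 and 0.18), and gave *Sox10* an adjusted p of 0.0259 and *Gpr17* of 0.0361 with LPS + IFNγ. The litter block of the responses pairs wells of the same mice, and without it *Cspg4*, *Sox10* and *Gpr17* lost their calls in WT and *Gpr17* in *Nlrx1*-/-.

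The values that changed sign were all of genes with differences near 0 or resting on litters 2 and 4. In the responses they were *Olig2* in WT at 0.03 without WT litter 3 and at 0.00 in edgeR without a filter, and in *Nlrx1*-/- at 0.06 without litters 2 and 4. In vehicle they were *Cspg4* at -0.02 and -0.03 without WT litters 3 and 4, at -0.03 and -0.01 without *Nlrx1*-/- litters 1 and 2, at -0.05 without litters 2 and 4 and at 0.00 with library medians subtracted, *Lhfpl3* at -0.03 without WT litter 4, and, without litters 2 and 4, *Olig2* at -0.11, *Sox10* at 0.11 and *Gpr17* at 0.01. With LPS + IFNγ they were *Olig1* at 0.03 without WT litter 1, at 0.02 without *Nlrx1*-/- litter 2 or 4 and at 0.13 without both, and *Olig2* at -0.08 without WT litter 3 and at 0.00 without litters 2 and 4. In the interaction they were *Olig2* at 0.04 without *Nlrx1*-/- litter 2 and at 0.10 without litters 2 and 4, and *Nkx2-2* at 0.04 without WT litter 2 and at 0.02 without litters 2 and 4. At the other end, leaving out 1 litter gave up to 0.15 for *Lhfpl3* and 0.13 for *Cspg4* in vehicle, -0.12 for *Olig1* and 0.33 for *Olig2* with LPS + IFNγ, and -0.12 for *Olig2* and -0.13 for *Nkx2-2* in the interaction.

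Over all genes, limma called 0 in the interaction at an adjusted p below 0.05 and 2786 at an unadjusted p below 0.05, edgeR called 0, and DESeq2 called 125 higher and 237 lower. In vehicle limma called 1, edgeR 0 and DESeq2 448 higher and 253 lower. With LPS + IFNγ limma called 735 higher and 736 lower, edgeR 434 and 411 and DESeq2 1241 and 1246. With library medians subtracted, 3261 genes rose and 4774 fell in WT, and 3659 rose and 5177 fell in *Nlrx1*-/-. The calls over all genes also depend on the litters. Without WT litter 2, 3 or 4, limma called 0 higher and 1 lower with LPS + IFNγ. Without *Nlrx1*-/- litter 3 it called 378 higher and 444 lower in the interaction, 688 and 930 in vehicle, and 1888 and 1980 with LPS + IFNγ.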

Other observations

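Lists of other cell types that a culture of this kind could hold moved in several directions. Of all genes, 24.9% rose and 21.9% fell in WT, and 26.6% rose and 25.5% fell in *Nlrx1*-/-. Of 10 measured neuronal genes, 5 rose and 3 fell in WT and 3 rose and 4 fell in *Nlrx1*-/-, led in both by *Tubb3*, a tubulin of neurons (2.68 and 2.96). Their summed levels were from 46.6 to 62.3 CPM in WT vehicle and from 90.6 to 127.1 CPM in WT with LPS + IFNγ. Most of that rise was *Tubb3* alone, at 3.29 to 3.39 log2 CPM in WT vehicle and 5.68 to 6.31 in WT with LPS + IFNγ. Of 9 ependymal genes, 1 rose and 4 fell in WT and 1 rose and 6 fell in *Nlrx1*-/-. With LPS + IFNγ, 4 were lower in *Nlrx1*-/- than in WT, the largest being *Tppp3* (-1.39), against 4.41% of all genes. Without *Nlrx1*-/- litters 2 and 4, 0 were lower, in a fit that called only 1 gene higher and 2 lower of all 16707. Of 6 endothelial genes, 1 rose and 1 fell in WT and 2 rose and 1 fell in *Nlrx1*-/-. *Ly6c1*, a surface protein of the Ly6 family, was listed at 0 CPM in all 8 vehicle libraries and lay between 2.49 and 3.72 log2 CPM in the 8 libraries with LPS + IFNγ. Of the microglial list, *P2ry12* was the 1 gene with a row, and it rose in WT (1.57) and in *Nlrx1*-/- (2.10), with at most 1.8 CPM in any library.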
